A study of Rattus norvegicus with 2 samples.

Results

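The 9 genes described here cover the carriage, synthesis, binding and breakdown of retinoic acid, the active form of vitamin A. They were chosen by name from the 25399 genes measured, with earlier results of these data known. Counts of them beside the share of all genes are therefore a description and not a test. All 9 were measured, each under a single identifier. By role they are Rbp4 and Stra6 (carriage and uptake of retinol), Rdh10 (retinol to retinal), Aldh1a1, Aldh1a2 and Aldh1a3 (retinal to retinoic acid), Crabp1 and Crabp2 (binding inside the cell) and Cyp26b1 (breakdown).

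Retinol reaches tissues on a carrier protein and is oxidised first to retinal and then, irreversibly, to retinoic acid. Retinoic acid acts through nuclear receptors, the RARs paired with RXRs, which sit on DNA at repeated hexamers, and enzymes of the Cyp26 family clear it, so that a tissue's level depends on the making and the clearing of it in neighbouring cells. Fibroblasts of the coverings of the brain are a known source of retinoic acid and bear Aldh1a2.

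Cells of the optic nerve were sequenced in 2 libraries, 1 from WT Sprague Dawley rats and 1 from Nuc1 rats, which descend from that strain and carry a spontaneous insertion in Cryba1, a crystallin gene that astrocytes also use. The labels give postnatal day 7 for both. The series title names a mixed cell culture, the design text a digest of the nerve, and the methods of the study cultures from younger pups, so how long the cells had grown is not settled here. The measured values are unique molecular identifiers (UMIs, each 1 captured molecule) from the 3′ ends of transcripts. With 1 library per genotype there was no replicate and no test between genotypes. Levels are UMIs per 1000000 UMIs of the same cells (CPM), and the 95% intervals in parentheses are exact and cover counting error only. They say nothing of the spread between animals or cultures.

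The WT library held 34517542 UMIs in 2107 barcodes and the Nuc1 library 35794685 in 1929, and 2 barcodes occurred in both. After filters on genes, mitochondrial UMIs and doublets 1961 WT and 1780 Nuc1 cells were kept. Cryba1 had 0 UMIs in both libraries, so the genotype could not be read from it. Eif2s3y, a Y-linked gene, had 3 UMIs in WT and 896 in Nuc1 cells, and 411 Nuc1 cells held a UMI of it or of Kdm5d. Kdm5d, also Y-linked, had 0 and 204 UMIs. By these genes male cells were present in the Nuc1 library and almost absent from the WT library. Sex thus differed along with genotype, and the 2 cannot be told apart.

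Clustering without the 9 genes and the other listed pathway genes gave 10 groups, of which 5 were collagen-rich, as fibroblasts are, with at least 5000 CPM of Col1a1, Col3a1, Dcn and Lum together. They were led by Igfbp5, Ccn3 and Rspo3 (cluster 0), Actg2 and Penk (cluster 1), Cldn11 and Thbd among others (cluster 2), Inmt (cluster 4) and the division genes Ube2c, Top2a and Mki67 (cluster 5). Together they made up 88.7% of kept WT and 70.8% of kept Nuc1 cells. Astrocyte-like cells (cluster 3, led by Gfap, Hspb1, Fabp7 and Aqp4 among others) numbered 105 WT and 350 Nuc1 cells. All 9 astrocyte markers were present in them in both libraries, as they were in the pooled collagen-rich cells. Their summed level was 41458 CPM in WT and 52017 CPM in Nuc1 astrocyte-like cells, against 683 and 802 CPM in collagen-rich cells. The next highest group, cluster 6, had 19505 and 21848 CPM. Of the smaller groups, cluster 6 (16 WT and 109 Nuc1 cells) was led by Ttr, with motile cilia genes among those that followed. It is called motile cilia-like here, and Ttr was not followed further. Others had genes of the oligodendrocyte lineage (cluster 7, 49 and 10) or macrophage genes (cluster 8, 29 and 27). A further, unnamed group was led by Gldn among others and held Nkx2-1 (cluster 9, 22 and 24). The 4 measured markers of endothelium summed to 6.83 and 14.5 CPM over all kept cells, mostly Egfl7 and Cdh5, and to 34.4 and 45.7 CPM in the Inmt cluster, while Cldn5 had 2 WT and 4 Nuc1 UMIs. The 4 markers of mural cells summed to 1.3 and 2.37 CPM.

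The Inmt cluster held 53 WT and 367 Nuc1 cells (2.7% and 20.6% of kept cells), so 87.4% of it came from 1 library. Its WT cells had a summed 121 CPM of Inmt, Slc6a13, Slc22a6 and Slc22a8, against at most 2.56 CPM in the other WT clusters. Without integration of the libraries it held 51 WT and 382 Nuc1 cells. Whether these are 1 cell type in both libraries was not tested. The size of the cluster in Nuc1, and its levels, may follow genotype, sex, animals or handling, which cannot be told apart. Inmt, a methyltransferase gene, was itself unequal in the cluster, at 108 CPM in WT and 1033 CPM in Nuc1 cells, and it was found in 22.6% and 62.4% of them. Over the 8 other clusterings tried the Inmt cluster held 16 to 54 WT and 109 to 382 Nuc1 cells. The borders between clusters 0, 1 and 2 were less firm. With another set of doublet calls the Cldn11 cluster held 438 WT and 278 Nuc1 cells in place of 327 and 222, and without integration of the libraries it held 8 and 718 and the Ccn3 cluster 973 and 2. The range of a log2 ratio over the other clusterings is therefore given for these clusters, leaving out a clustering in which the cluster held fewer than 10 cells of a library or 0 UMIs of the gene in one. In 2 of the 8 (the 10% mitochondrial limit and the lower resolution) the Ccn3 and Cldn11 clusters were 1 cluster, whose value enters the range of both.

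The genes fell mainly to 2 kinds of cells. Aldh1a1 lay in astrocyte-like cells, while Aldh1a2, Cyp26b1 and Crabp2 lay almost wholly in the collagen-rich clusters, and Rdh10 and Rbp4 were spread over both. Of the UMIs of both libraries, astrocyte-like cells held 89.1% (88.1 to 90.1) of Aldh1a1 and 1.57% (0.997 to 2.34) of Aldh1a2. Collagen-rich cells held 96.6% (95.5 to 97.5) of Aldh1a2, 98.2% (97.8 to 98.6) of Cyp26b1 and 97.8% (97.6 to 98.1) of Crabp2. These shares rested on the clusters. With each cell put in the class of its highest marker score instead, the collagen-rich class held 1349 WT and 690 Nuc1 cells in place of 1740 and 1260, and 38.5%, 47.01% and 60.3% of the UMIs of the 3 genes. Aldh1a3, Crabp1 and Stra6 were scarce, with 61, 52 and 80 UMIs in all kept cells.

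**Figure D1:**
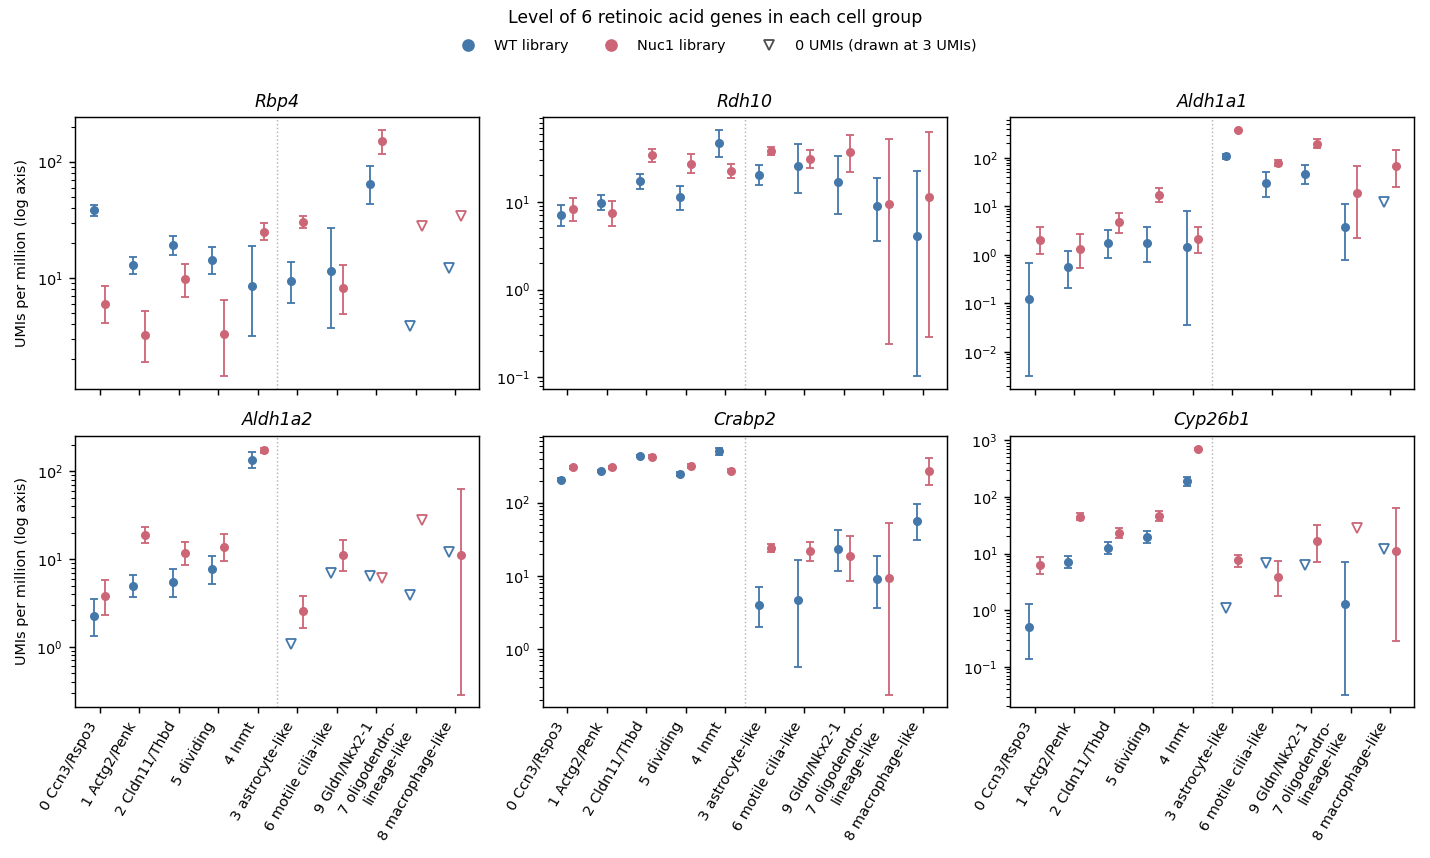
Level of 6 of the 9 genes, in CPM on a log axis, in each of the 10 cell groups for the WT (blue) and the Nuc1 (red) library. Bars are exact Poisson 95% intervals, open triangles stand for 0 UMIs and are drawn at 3 UMIs, and the dotted line parts the collagen-rich groups (left) from the others. Aldh1a2 and Cyp26b1 are highest in the Inmt cluster in both libraries, at 136 and 174 CPM and at 188 and 706 CPM, and Aldh1a1 is highest in astrocyte-like cells.

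Rbp4 encodes the protein that carries retinol in blood. Its highest level was in the Gldn cluster, with 63.9 CPM (43.1 to 91.3) from 30 UMIs in the WT library and 149.6 CPM (117 to 188) from 73 UMIs in the Nuc1 library. In the Nuc1 library, 31 of the 73 UMIs were in 1 cell. Both values lay above those of the next group, cluster 0, at 38.1 CPM (33.9 to 42.6) in WT and 6.03 CPM (4.13 to 8.52) in Nuc1 cells. From there down to cluster 1, each neighbour in the order of mean levels overlapped the next, and the oligodendrocyte-lineage-like and macrophage-like groups had 0 UMIs.

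Between the libraries Rbp4 went both ways. It was lower in Nuc1 cells of clusters 0, 1, 2 and 5, the largest difference being 6.31-fold in cluster 0. The log2 ratios of Nuc1 over WT were -2.66 (-3.23 to -2.13) in cluster 0, -1.98 (-2.8 to -1.25) in cluster 1, -0.98 (-1.54 to -0.44) in cluster 2 and -2.11 (-3.39 to -1.03) in cluster 5. Over the other clusterings the log2 ratio ran from -2.67 to -1.62 in the Ccn3 cluster, from -2.74 to -1.31 in the Penk cluster and from -1.97 to -0.80 in the Cldn11 cluster. The merged cluster gave -1.62 and -1.97, the upper end of the first and the lower end of the last of these ranges. Ccn3 and Rspo3, markers of cluster 0, were lower in the same Nuc1 cells, with a summed 3712 and 989.7 CPM in cluster 0 and 1631 and 571 in cluster 1. Cluster 2 had 1819.6 and 818 CPM and cluster 5 had 799 and 557 CPM. They were also lower in the groups where Rbp4 was higher. Levels were 102 and 75.7 CPM in the Inmt cluster, 142 and 108 in astrocyte-like and 164 and 154 in Gldn cells. The 6 general fibroblast markers were lower in Nuc1 cells of all 5 collagen-rich clusters, with 11134 and 5505 CPM in cluster 0 and 12467 and 9478 in the Inmt cluster. The part of these markers in the Rbp4 difference was not tested. Rbp4 was higher in Nuc1 cells of the astrocyte-like, Inmt and Gldn groups. Astrocyte-like cells had 9.36 CPM (6.11 to 13.7) in WT and 30.6 CPM (27.1 to 34.4) in Nuc1, a log2 ratio of 1.71 (1.13 to 2.35). The Inmt cluster had 6 UMIs (8.61 CPM) in WT and 143 UMIs (25.1 CPM) in Nuc1, a log2 ratio of 1.54 (0.39 to 3.01), and the Gldn cluster a log2 ratio of 1.23 (0.59 to 1.89). In astrocyte-like cells the difference was not seen under a 10% mitochondrial limit, which left 28 WT and 179 Nuc1 cells and a log2 ratio of 0.071 (-0.52 to 0.72). Over all kept cells the sums came close, at 19.99 CPM in WT and 17.5 CPM in Nuc1, but collagen-rich cells held 90.98% (88.6 to 93.03) of the WT and 39.4% (35.5 to 43.5) of the Nuc1 UMIs.

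Shares of cells in cluster 0 went the same way as the level. With each cell thinned to 5000 UMIs, 15.7% (12.9 to 18.8) of WT and 3.1% (1.56 to 5.48) of Nuc1 cells of cluster 0 held an Rbp4 UMI, and unthinned the shares were 27.6% and 7.3%, at medians of 11641 and 13224 UMIs per cell. No macrophage-like cell of either library held one, at medians of 6214 and 2001 UMIs.

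Stra6, the membrane receptor that takes retinol from Rbp4, had 18 UMIs in WT and 62 in Nuc1 cells. Collagen-rich cells held 18 and 57 of these, at 0.618 CPM (0.367 to 0.977) and 2.52 CPM (1.91 to 3.26), a log2 ratio of 2.02 (1.24 to 2.88). No WT astrocyte-like cell held a UMI, which allows a level of up to 1.08 CPM at this depth. Lrat, which stores retinol as an ester, had 1 UMI in collagen-rich and 4 UMIs in astrocyte-like cells, out of 7 WT and 13 Nuc1 UMIs in all.

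Rdh10, which oxidises retinol to retinal, had UMIs in each of the 10 groups in both libraries, at 4.04 to 47.3 CPM. Macrophage-like cells of each library and Nuc1 cells of the oligodendrocyte-lineage-like group had only 1 UMI each. The highest WT level was in the Inmt cluster, at 47.3 CPM (32.6 to 66.5), where the Nuc1 level was 22.7 CPM (18.9 to 26.9), a log2 ratio of -1.06 (-1.62 to -0.47) with -1.2 to -0.35 over the other clusterings. In 3 other groups the Nuc1 level was the higher: 17.2 and 33.96 CPM in cluster 2, 11.3 and 27.4 CPM in cluster 5, and 20.5 and 37.8 CPM in astrocyte-like cells. The log2 ratios there were 0.98 (0.59 to 1.37), 1.28 (0.71 to 1.87) and 0.88 (0.47 to 1.31). In clusters 0 and 1 the intervals held 0, with log2 ratios of 0.23 (-0.38 to 0.82) and -0.40 (-0.96 to 0.15). Over the other clusterings the ratio ran from -0.48 to 1.01 in the Ccn3, from -0.65 to -0.08 in the Penk and from 0.61 to 1.19 in the Cldn11 cluster. In the order of mean levels the groups from the Inmt cluster down to cluster 5 were not separated, since each neighbour's range over the libraries overlapped the next.

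Aldh1a1, an enzyme that oxidises retinal to retinoic acid, was found in astrocyte-like cells of both libraries. The WT library gave 302 UMIs, 109 CPM (96.8 to 122), and the Nuc1 library 3299 UMIs, 367 CPM (354 to 379). The Nuc1 level was 3.37-fold higher, a log2 ratio of 1.75 (1.58 to 1.93). With the Nuc1 cells that held Y-linked UMIs left out the log2 ratio was 1.93, and under a 10% mitochondrial limit 1.69. The first of these drops only cells with a Y-linked UMI, so it does not make the libraries equal in sex.

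The share of astrocyte-like cells with an Aldh1a1 UMI was close in the libraries at full depth, at 70.5% in WT and 73.4% in Nuc1, with medians of 25925 and 24364 UMIs per cell. With cells thinned to 5000 UMIs they were 26.7% (18.5 to 36.2) and 43.4% (38.1 to 48.8), with intervals over the cells of 1 library each, which do not test the genotypes. Macrophage-like cells, which should lack the gene, had a UMI in 0 of 29 WT and 1 of 27 Nuc1 cells, though at the lower depth given above. Expression was uneven within the type. The highest 10% of astrocyte-like cells held 47.7% of the WT and 64.9% of the Nuc1 UMIs, with up to 42 and 182 in 1 cell.

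Outside astrocyte-like cells, Aldh1a1 was found in the Gldn cluster at 46.9 CPM (29.4 to 70.98) in WT and 197 CPM (159 to 240.3) in Nuc1. That Nuc1 level rested on 1 cell with 74 of the 96 UMIs, and without the highest cell of each library the log2 ratio went from 2.07 to 0.51 (-0.51 to 1.56). Cells with motile cilia genes had 30.02 CPM (15.98 to 51.3) in WT and 78.8 CPM (67.7 to 91.1) in Nuc1, a log2 ratio of 1.39 (0.58 to 2.33). Gfap, the intermediate filament gene of astrocytes, was read in these groups too. Per 100 Gfap UMIs, summed over both libraries, there were 3.41 Aldh1a1 UMIs in astrocyte-like and 3.52 in motile cilia-like cells. The Gldn cluster had 28.4, from 118 UMIs of which 74 Nuc1 and 7 WT UMIs lay in 1 cell each, and the collagen-rich clusters had 8.76 to 23.9, from 12 to 49 UMIs. The groups also differed in their share of Nuc1 cells, which enters these ratios. In collagen-rich cells the level was 0.859 CPM in WT and 4.02 CPM in Nuc1, from 25 and 91 UMIs. Of these Nuc1 UMIs 42 lay in cluster 5, with 21 in 1 cell. Over all kept cells Aldh1a1 was 9.83-fold higher in the Nuc1 library, at 10.8 and 106 CPM, beside shares of astrocyte-like cells of 5.35% and 19.7%.

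Aldh1a2 encodes the enzyme of the same reaction in mesenchyme, and Cyp26b1 an enzyme that hydroxylates retinoic acid for removal. Both were highest in the Inmt cluster. For Aldh1a2 it had 95 UMIs, 136 CPM (110.3 to 167), in WT and 989 UMIs, 174 CPM (163 to 185), in Nuc1 cells. For Cyp26b1 it had 131 UMIs, 188 CPM (157 to 223), in WT and 4021 UMIs, 706 CPM (685 to 728), in Nuc1 cells. The next group in the order of mean levels was cluster 1 for Aldh1a2, at 4.98 and 18.9 CPM, and cluster 5 for Cyp26b1, at 19.7 and 46.4 CPM. Neither overlapped the Inmt cluster, while each later neighbour overlapped the next.

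Within the Inmt cluster Cyp26b1 was 3.76-fold higher in Nuc1 cells (log2 ratio 1.91, interval 1.66 to 2.17), with 1.78 to 2.01 over the other clusterings. Aldh1a2 was 1.27-fold higher, a log2 ratio of 0.35 (0.045 to 0.67). That interval reached below 0 with cells thinned to 5000 UMIs, at 0.19 (-0.29 to 0.71). The synthetic enzyme thus differed little between the libraries within this group, and the clearing enzyme by more, with intervals that did not overlap.

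The 250 bases before the transcription start of both genes are shown because their levels followed each other over the groups, with Pearson's r = 0.94 of log2(CPM + 10) over the 18 profiles (a group in a library) of at least 20 cells, which share 2 libraries. Aldh1a1, whose pattern differed (r = -0.31 with Aldh1a2), is set beside them. Aldh1a2 and Cyp26b1 were both far higher in the Inmt cluster than in any other group, and their r without that cluster was not computed. Hexamers that retinoic acid receptors are known to bind were searched on both strands, namely AGGTCA with its close spelling AGTTCA, then the spelling GGGTCA and last the spelling GGTTCA, and capitals mark a match. The sequences are those of RefSeq in the build GRCr8, read 5′ to 3′ on the strand of the gene, from chr8:80758391-80758640 (plus strand) for Aldh1a2, chr4:118616177-118616426 (minus strand) for Cyp26b1 and chr1:227537370-227537619 (plus strand) for Aldh1a1.
Aldh1a2: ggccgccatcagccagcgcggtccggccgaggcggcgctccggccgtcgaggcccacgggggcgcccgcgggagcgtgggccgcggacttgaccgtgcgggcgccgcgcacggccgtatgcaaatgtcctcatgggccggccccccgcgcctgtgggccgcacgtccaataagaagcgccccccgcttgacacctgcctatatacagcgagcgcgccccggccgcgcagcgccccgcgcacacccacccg
Cyp26b1: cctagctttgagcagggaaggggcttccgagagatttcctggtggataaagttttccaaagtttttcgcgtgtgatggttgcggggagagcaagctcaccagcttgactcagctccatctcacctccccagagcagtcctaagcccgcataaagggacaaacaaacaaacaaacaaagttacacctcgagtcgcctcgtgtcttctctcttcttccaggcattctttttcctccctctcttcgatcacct
Aldh1a1: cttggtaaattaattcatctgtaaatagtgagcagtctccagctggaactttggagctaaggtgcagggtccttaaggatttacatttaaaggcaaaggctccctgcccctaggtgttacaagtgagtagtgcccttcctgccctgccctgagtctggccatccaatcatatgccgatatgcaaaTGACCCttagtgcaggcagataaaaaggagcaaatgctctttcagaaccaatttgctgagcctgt
The windows of Aldh1a2 and Cyp26b1 held none of the 4 hexamers. That of Aldh1a1 held 1, GGGTCA on the opposite strand, starting 65 bases before the start of transcription. Of all 33469 such windows, 39.1% held a hexamer and 0.651% held a pair in direct repeat with 1, 2 or 5 bases between. RefSeq windows were found for 8 of the 9 genes, all but Rdh10. Of these 2 held a hexamer (Aldh1a1 and Stra6) and 0 held a direct repeat. The window of Cyp26a1, a related clearing enzyme, held 1, at chr1:244883730-244883746 (plus strand), shown as an example of the form.
Cyp26a1: TGAACTttgggTGAACT
A match is a run of letters and not a measured site, and no match says only that these letters are not in the window.

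The genes were also followed cell by cell within the Inmt cluster. With cells thinned to 5000 UMIs, 28.3% (16.8 to 42.3) of the 53 WT and 35.2% (30.4 to 40.4) of the 366 Nuc1 cells held an Aldh1a2 UMI. Cyp26b1 was found in 35.8% (23.1 to 50.2) of WT and 57.4% (52.1 to 62.5) of Nuc1 cells. Unthinned, the shares were 50.9% and 47.96% for Aldh1a2 and 47.2% and 70.03% for Cyp26b1, against 0% in WT and 3.7% in Nuc1 macrophage-like cells for either gene, whose depth was lower. In the Nuc1 library Cyp26b1 was found in 59.7% (50.7 to 68.2) of the 129 thinned cells with Aldh1a2 and in 56.1% (49.5 to 62.5) of the 237 without it, shares whose intervals overlapped widely. In the WT library it was found in 2 of 15 cells with Aldh1a2, 13.3% (1.66 to 40.5), and in 17 of 38 without, 44.7% (28.6 to 61.7). Aldh1a2 was found in 40.98% (34.2 to 48.04) of Nuc1 cells with Crabp2 and 27.95% (21.2 to 35.6) of those without it. Cyp26b1 was found in 50.3% (42.9 to 57.6) of the Nuc1 cells with Inmt, the gene that led the cluster, and in 64.97% (57.5 to 71.98) of those without it. In both of these pairs only the ends of the intervals overlapped. Such overlap does not show that the shares are equal, and the differences were not tested.

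In the other collagen-rich clusters both genes were low, and Cyp26b1 was higher in the Nuc1 library in each. In cluster 1 Cyp26b1 had 77 UMIs, 7.11 CPM (5.61 to 8.88), in WT and 236 UMIs, 45.02 CPM (39.5 to 51.1), in Nuc1 cells, which made the log2 ratio 2.66 (2.29 to 3.05). Without the highest cell of each library that ratio was 2.71 (2.31 to 3.13), and over the other clusterings it ran from 1.76 to 3.82. With cells thinned to 5000 UMIs, 2.36% (1.3 to 3.93) of WT and 9.7% (6.25 to 14.2) of Nuc1 cells of cluster 1 held a Cyp26b1 UMI, and unthinned 5.85% and 21.01%. In clusters 0, 2 and 5 the log2 ratio of Cyp26b1 was 3.64 (2.15 to 5.6), 0.88 (0.42 to 1.34) and 1.24 (0.81 to 1.68). The first of these rests on 4 WT UMIs in a single cell, and without the highest cells cluster 2 gave 0.55 (-0.018 to 1.13), an interval that holds 0, and cluster 5 0.63 (0.10 to 1.16). Over the other clusterings the ratio ran from 1.55 to 4.08 in the Ccn3 and from 0.07 to 1.59 in the Cldn11 cluster.

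Aldh1a2 in cluster 1 had 4.98 CPM (3.74 to 6.5) in WT and 18.9 CPM (15.3 to 22.99) in Nuc1 cells, which made the log2 ratio 1.92 (1.43 to 2.43). In clusters 0, 2 and 5 it was 0.75 (-0.24 to 1.75), 1.09 (0.41 to 1.8) and 0.83 (0.077 to 1.6). The interval thus lay above 0 in 4 of the 5 collagen-rich clusters, the Inmt cluster included, and held 0 in cluster 0. These calls rested on few cells in clusters 0 and 5. Without the highest cell of each library cluster 0 gave 1.34 (0.051 to 2.71), now above 0, and cluster 5 gave 0.86 (-0.083 to 1.81), which holds 0, while clusters 1 and 2 gave 1.89 (1.29 to 2.51) and 1.69 (0.80 to 2.63). Over the other clusterings the ratio ran from 0.47 to 3.42 in the Ccn3, from 1.16 to 3.17 in the Penk and from 0.69 to 1.75 in the Cldn11 cluster. With no doublets left out the Ccn3 cluster gave 1.24 (0.44 to 2.06) and the Cldn11 cluster 0.69 (-0.085 to 1.48).

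**Figure D2:**
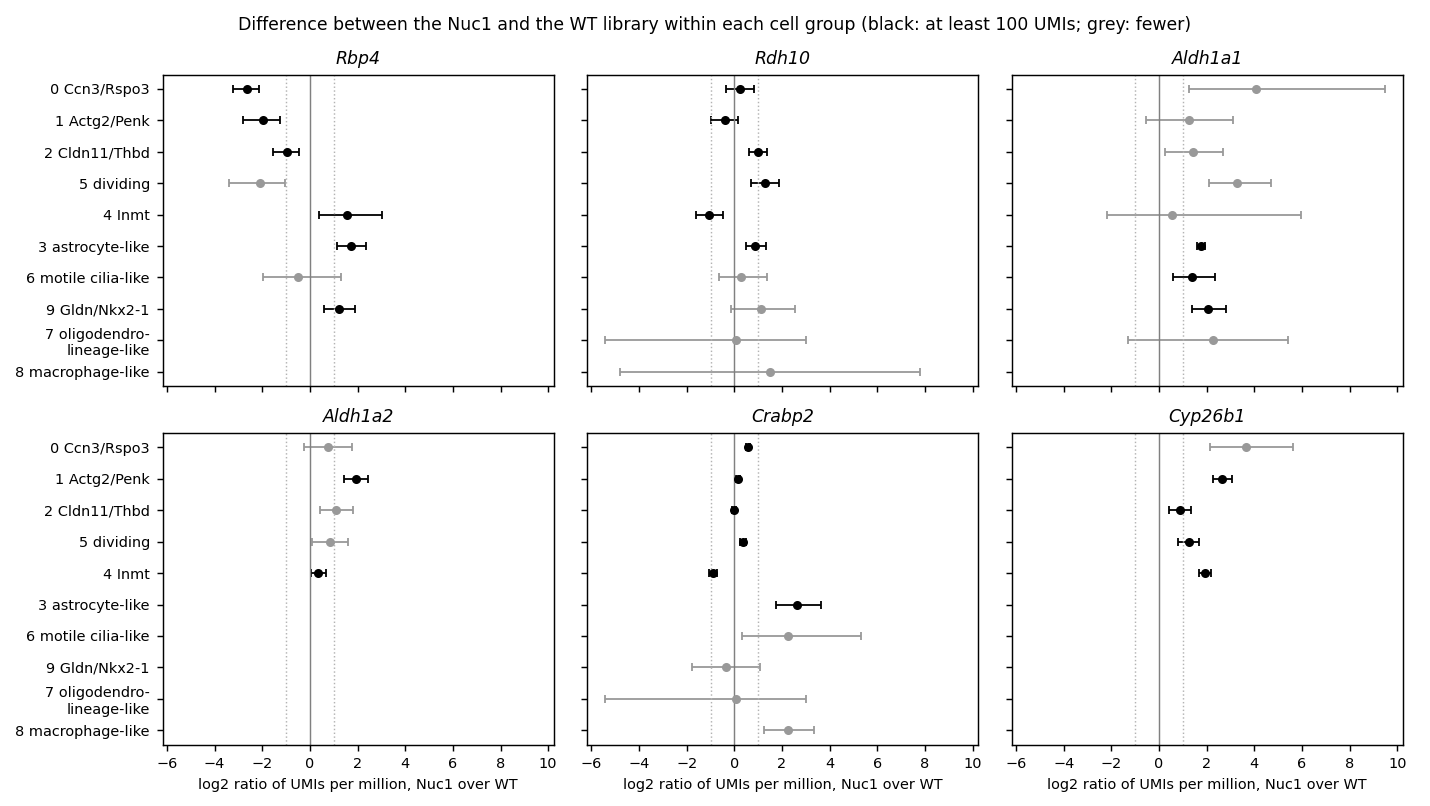
Log2 ratio of CPM, Nuc1 over WT, within each cell group for 6 of the 9 genes, with exact 95% intervals. Black points rest on at least 100 UMIs and grey points on fewer, dotted lines mark 2-fold, and groups with 0 UMIs in a library have no point. Rbp4 lies left of 0 in clusters 0, 1, 2 and 5 and right of 0 in the Inmt, astrocyte-like and Gldn groups, while Cyp26b1 lies right of 0 in all 5 collagen-rich clusters, at 0.88 to 3.64.

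In different clusters the ratio lay beyond counting error in opposite directions for 4 of the 9 genes (Rbp4, Rdh10, Crabp2 and Aldh1a3), against 15.4% of the 12256 genes with at least 50 UMIs. The Aldh1a3 difference in cluster 1 rested on few cells. In cluster 1, with 7 of its 13 Nuc1 UMIs in 1 cell, it gave 1.05 (-0.85 to 2.95) without the highest cell of each library, against 1.58 (0.24 to 2.98) with it.

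Pooled over the 5 collagen-rich clusters, Cyp26b1 had 12.4 CPM in WT and 198 CPM in Nuc1 cells, with a log2 ratio at 4.0 (3.85 to 4.16), and Aldh1a2 7.83 and 52.4 CPM, a log2 ratio of 2.74 (2.54 to 2.95). The share of Inmt cluster cells among them differed between the libraries, as given above. Without the Inmt cluster the log2 ratios were 1.79 for Cyp26b1 and 1.33 for Aldh1a2, and with the 5 clusters weighted equally 1.86 and 0.50. In the pooled value, more cells of a kind and more RNA per cell cannot be told apart.

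By this pooled measure 3 of the 6 genes of the set with at least 100 UMIs were 2-fold or more higher in Nuc1 cells (Aldh1a1, Aldh1a2 and Cyp26b1), against 4.41% of the 10339 genes with as many UMIs (8.19% were past 2-fold in either direction). Aldh1a1 entered this count with only 25 WT and 91 Nuc1 UMIs, 21 of the latter in 1 cell. Aldh1a2 was below 2-fold with the 5 clusters weighted equally, at a log2 ratio of 0.50. Rbp4 alone was 2-fold lower, at a log2 ratio of -1.0 (-1.22 to -0.78) that only just reached that limit, against 3.78% of all genes. The median log2 ratio was 1.44 for the 6 genes and 0.023 for all genes. The other 3 genes of the set had fewer UMIs. The set was chosen with earlier results of these data known, so these counts describe it and do not test it. Over all kept cells, where the makeup of the libraries also enters, the same 3 genes of 6 were 2-fold or more higher, against 8.1% of 11290 genes, and 0 were 2-fold lower, against 4.56%, with 12.7% past 2-fold in all.

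Within the Inmt cluster itself, 5 of the 9 genes had at least 100 UMIs. Of these, 2 were 2-fold or more higher in Nuc1 (Cyp26b1 and Rbp4), against 3.64% of 6448 genes, and 1 was 2-fold lower (Rdh10), against 2.19%, with 5.83% of all genes past 2-fold. Rdh10 sat near that limit, and without the highest cell of each library its log2 ratio was -0.92 (-1.52 to -0.27). The median log2 ratio was 0.35 for the 5 and 0.052 for all genes.

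Outside collagen-rich cells Aldh1a2 and Cyp26b1 were rare. Astrocyte-like cells had 0 UMIs of either in the WT library, which allows up to 1.08 CPM, and 23 of Aldh1a2 (2.56 CPM) and 68 of Cyp26b1 (7.56 CPM) in the Nuc1 library. All 6 fibroblast markers were read in astrocyte-like cells of both libraries, at a summed 524 CPM in WT and 437 CPM in Nuc1, against 11217 and 6905 CPM in collagen-rich cells. Of the astrocyte-like cells 17 WT and 61 Nuc1 cells held over 300 CPM of Col1a1, Col3a1, Dcn and Lum. Without those cells 3 Aldh1a2 and 5 Cyp26b1 UMIs remained in the Nuc1 library.

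**Figure D3:**
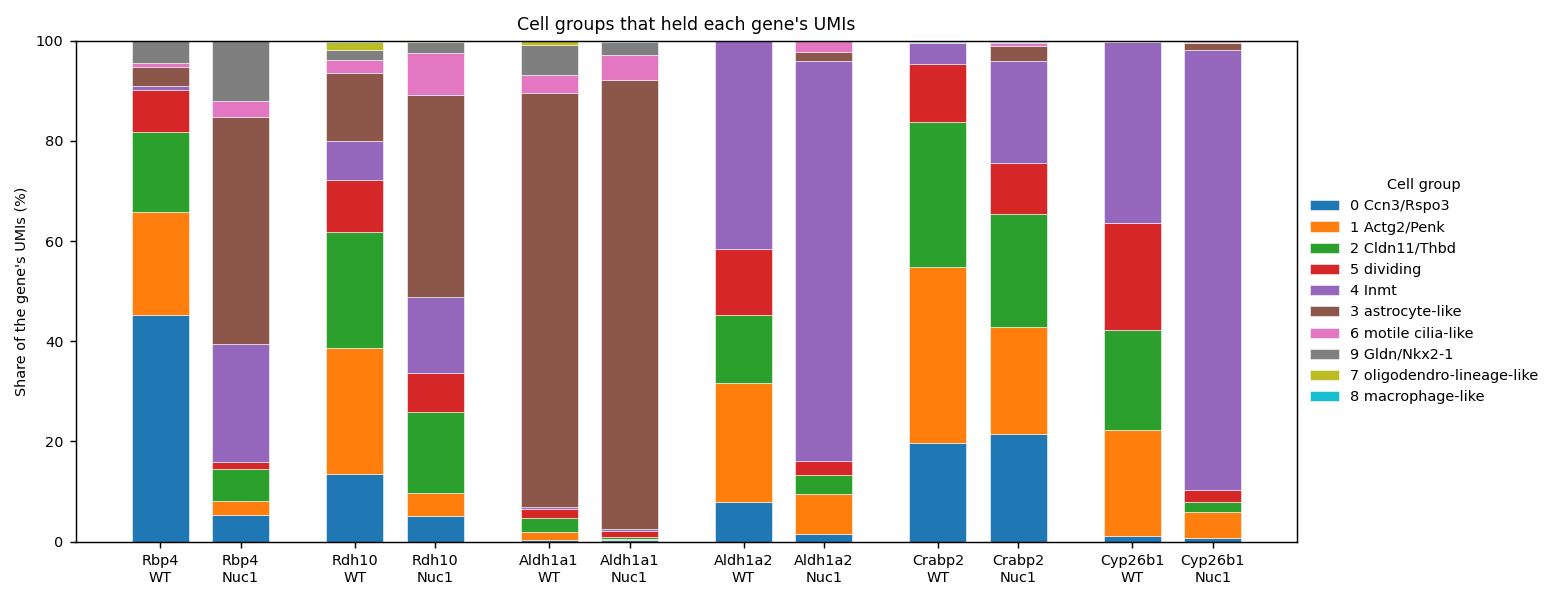
Share, in percent, of the UMIs of 6 of the 9 genes that lay in each cell group, in the WT and the Nuc1 library. Astrocyte-like cells hold 82.7% of Aldh1a1 in WT and 89.7% in Nuc1, and the Inmt cluster holds 36.2% and 87.8% of Cyp26b1 and 41.7% and 79.9% of Aldh1a2.

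Crabp2 encodes a protein that carries retinoic acid to the nuclear receptors. It was found in all 5 collagen-rich clusters, at 207 to 504 CPM, and at no more than 24.1 CPM in the astrocyte-like, motile cilia-like, oligodendrocyte-lineage-like and Gldn groups. Macrophage-like cells had 14 UMIs (56.6 CPM) in WT and 24 UMIs (271 CPM) in Nuc1, beside a summed 1055 and 1139 CPM of the 6 fibroblast markers. The part of fibroblast RNA in these values was not tested.

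Between the libraries Crabp2 moved little in most fibroblast groups. Cluster 2 had 437 CPM (419 to 454) in WT and 427 CPM (407 to 447) in Nuc1, a log2 ratio of -0.034 (-0.12 to 0.056). Cluster 0 had 207 CPM (197 to 217) and 306 CPM (292 to 322), a log2 ratio of 0.57 (0.47 to 0.67), and clusters 1 and 5 gave 0.16 (0.072 to 0.25) and 0.36 (0.22 to 0.50). The Inmt cluster went the other way, with 504 CPM (452 to 559) in WT and 272 CPM (259 to 286) in Nuc1, a log2 ratio of -0.89 (-1.06 to -0.72) that ran from -0.91 to -0.88 over the other clusterings. For Crabp2 the ranges were 0.19 to 0.58 in the Ccn3, 0.067 to 0.21 in the Penk and -0.087 to 0.22 in the Cldn11 cluster, where without integration, with 8 WT cells and outside these ranges, it was -1.15 (-1.5 to -0.77). In the pooled collagen-rich cells the log2 ratio was 0.15 (0.10 to 0.19), and with the 5 clusters weighted equally -0.034. In astrocyte-like cells 11 WT and 217 Nuc1 UMIs gave a log2 ratio of 2.61 (1.74 to 3.63), and without the cells rich in fibroblast genes 8 and 31 UMIs remained, a log2 ratio of 0.31 (-0.84 to 1.64).

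Crabp1, the related binding protein, had 22 WT and 15 Nuc1 UMIs in astrocyte-like cells, out of 28 and 24 in all. The levels there were 7.92 CPM (4.96 to 11.99) in WT and 1.67 CPM (0.933 to 2.75) in Nuc1, a log2 ratio of -2.25 (-3.3 to -1.24), with UMIs in 9 WT and 4 Nuc1 cells. Of the Nuc1 UMIs 12 lay in 1 cell, and without the highest cell of each library the log2 ratio was -4.03 (-6.46 to -2.21). Aldh1a3, the remaining synthetic enzyme, had 30 UMIs in WT and 31 in Nuc1 cells, 28 and 24 of them in collagen-rich cells, where the log2 ratio was 0.14 (-0.71 to 0.98). For these genes and Stra6 a comparison within single clusters rests on few UMIs at this depth, as for Aldh1a3 in clusters 0 and 1.

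In astrocyte-like cells 3 of the 4 genes of the set with at least 100 UMIs were 2-fold or more higher in Nuc1 (Aldh1a1, Rbp4 and Crabp2), against 1.91% of 7599 genes, and none was 2-fold lower, against 3.87%, with 5.78% of all genes past 2-fold. The median log2 ratio was 1.73 for the 4 genes and -0.11 for all genes. Without the cells rich in fibroblast genes the log2 ratio of Aldh1a1 was 1.8 (1.62 to 1.98) and that of Rbp4 1.86 (1.2 to 2.6), while Crabp2 was no longer 2-fold higher. The summed astrocyte markers in the same cells were 41458 CPM in WT and 52017 CPM in Nuc1, so the markers too were somewhat higher in the Nuc1 library, and their part in these differences was not tested.

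Besides the set, 34 other genes of the pathway were measured, also chosen with earlier results of these data known. In collagen-rich cells 19 of them had at least 100 UMIs, of which 4 were 2-fold or more higher in Nuc1 (Dhrs3, Dhrs9, Rarb and Tgm2), against 4.41% of all 10339 genes, and 1 was 2-fold lower (Adh7), against 3.78%. Their median log2 ratio was 0.063. Dhrs3, which reduces retinal back to retinol and is known to be induced by retinoic acid, had 31.8 CPM in WT and 167 CPM in Nuc1, a log2 ratio of 2.39 (2.29 to 2.5). Dhrs9, a dehydrogenase of the same superfamily that oxidises retinol, had 23.7 CPM in WT and 140.0 CPM in Nuc1, a log2 ratio of 2.56 (2.45 to 2.69).

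Known targets of retinoic acid were among these genes. Tgm2, a transglutaminase, had 44.8 CPM in WT and 174 CPM in Nuc1, a log2 ratio of 1.96 (1.87 to 2.05). Rarb, a receptor whose own gene is induced by retinoic acid, had 7.83 CPM in WT and 23.5 CPM in Nuc1, a log2 ratio of 1.59 (1.36 to 1.82) that was 0.55 with the 5 clusters weighted equally. Of the 8 genes listed as responsive and measured, 5 had at least 100 UMIs. Of these, 3 were 2-fold higher (Dhrs3, Rarb and Tgm2), against 4.41% of all 10339 genes, and 0 were 2-fold lower, against 3.78%. All of them were already counted among the other pathway genes above. The median log2 ratio of the 5 was 1.59, which is the value of Rarb. Nrip1, a corepressor on that list, had 12.1 CPM in WT and 9.23 CPM in Nuc1. Cyp26a1 and Hoxb1, on it too, had 0 UMIs in collagen-rich cells, and Stra8 had 2.

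Dhrs3, Dhrs9 and Tgm2 were found at 10 CPM or more in all 5 collagen-rich clusters of both libraries and were 2-fold or more higher in Nuc1 cells in each. The log2 ratio ran from 1.36 to 2.3 for Dhrs3, from 2.1 to 3.33 for Dhrs9 and from 1.67 to 2.81 for Tgm2. Rarb was higher in clusters 0, 1, 2 and 5, with log2 ratios of 0.91 to 3.05. In the Inmt cluster, where its levels were highest, Rarb had 50.2 CPM in WT and 39.7 CPM in Nuc1, a log2 ratio of -0.34 (-0.86 to 0.22).

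Most of the remaining pathway genes differed less in collagen-rich cells. Adh7, an alcohol dehydrogenase that oxidises retinol, had 6.53 CPM in WT and 2.87 CPM in Nuc1, a log2 ratio of -1.19 (-1.62 to -0.77). Cyp1b1, a cytochrome that can also make retinoic acid, had 184 CPM in WT and 282 CPM in Nuc1, a log2 ratio of 0.62 (0.57 to 0.67) that was -0.11 with the 5 clusters weighted equally. The receptors Rara and Rarg had log2 ratios of 0.0086 (-0.084 to 0.10) and -0.23 (-0.36 to -0.10), and their partner Rxrb one of -0.077 (-0.23 to 0.077). The corepressor Ncor1 gave -0.028 (-0.096 to 0.039). Rxra and Rxrg had 27 and 6 UMIs, too few to compare.

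**Figure D4:**
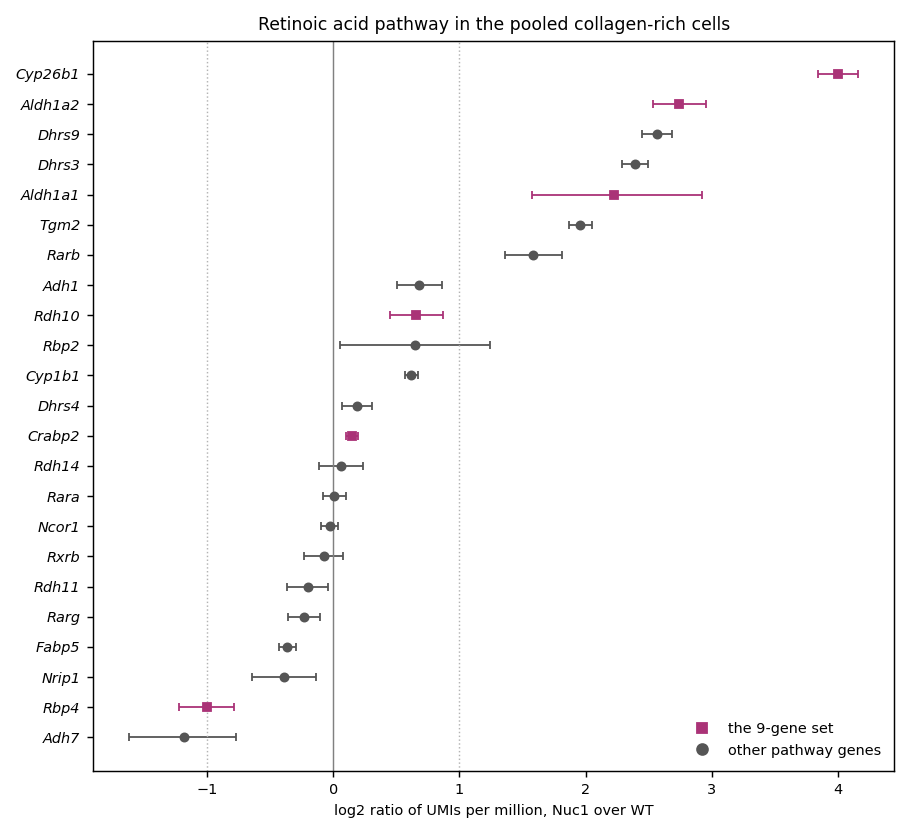
Log2 ratio of CPM, Nuc1 over WT, in the pooled collagen-rich cells for pathway genes with at least 100 UMIs there that are reported here. Squares are the 9-gene set, circles other pathway genes, bars exact 95% intervals and dotted lines 2-fold. Cyp26b1, Aldh1a2, Dhrs9, Dhrs3, Aldh1a1, Tgm2 and Rarb lie past 2-fold on the right, and Adh7 and, barely, Rbp4 on the left.

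In astrocyte-like cells 14 of the 34 other genes had at least 100 UMIs, of which 3 were 2-fold or more higher in Nuc1, Dhrs3 and Tgm2 among them, against 1.91% of all 7599 genes, and none was 2-fold lower, against 3.87%. Dhrs3 had 7 WT and 96 Nuc1 UMIs, and without the cells rich in fibroblast genes 4 and 27, a log2 ratio of 1.11 (-0.41 to 3.09). Tgm2 had 12 WT and 197 Nuc1 UMIs, and without the cells rich in fibroblast genes 2 and 14, a log2 ratio of 1.17 (-0.96 to 4.35). Both of these intervals hold 0. Fabp5, a second carrier of retinoic acid, had 2083 CPM in WT and 2566 CPM in Nuc1, a log2 ratio of 0.30 (0.26 to 0.34).

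By the likeness of levels over the 18 profiles (Pearson's r of log2(CPM + 10), searched over 8064 genes, with profiles that share 2 libraries), the nearest genes to Aldh1a1 were Hadhb (r = 0.95), Prdm16 (0.95) and Thsd1 (0.94). Aldh1a2 was nearest to Col26a1 (r = 0.94), Slc2a12 (0.93) and Inmt (0.91), and Cyp26b1 to Col26a1 (r = 0.92), Rbpj (0.91) and Flt1 (0.90). Col26a1, a collagen gene, thus stood first for both. Crabp2 was nearest to Mgst2 (r = 0.96), Cd248 (0.95) and Ctsk (0.95), and Rdh10, with lower values, to Med16 (r = 0.80), Sfrp1 (0.79) and Cpe (0.78). Among the 9 genes themselves, Aldh1a1 and Crabp2 ran opposite, with r = -0.65.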

How the data were processed

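The authors deposited UMI counts per gene and barcode for 2 libraries, from Cell Ranger 3.1.0 with STAR 2.7 and later Seurat steps by the submitters' processing notes. The genome build is not given in the sources used here. The 9 genes and all lists were chosen with earlier results of these data known.

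Barcodes under 500 genes or above 20% mitochondrial UMIs (13 genes) were left out, as were doublets called by Scrublet (scanpy 1.11.5, expected rate 2%): 7 WT and 13 Nuc1 cells (0.356% and 0.725%). Over 11 random seeds these calls ran from 2 to 7 in WT and from 11 to 67 in Nuc1. Kept cells had medians of 14050 and 16568 UMIs. Libraries were integrated by anchors in Seurat 5.3.0 (R 4.3.3) with 2000 variable genes, 30 principal components, resolution 0.5 and the pathway genes left out. Cell types were rebuilt from markers and may differ from those of the study. A group was called astrocyte-like with 3 of 9 markers among its 10 leading genes.

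Levels (CPM) are summed UMIs scaled to 1000000 UMIs, with exact Poisson intervals. Ratios have exact conditional and shares exact Clopper-Pearson intervals (scipy 1.17.1), and a count of 0 allows up to 3 counts. For counts past 2-fold over all genes, 0.5 UMIs were added. Of 36 other pathway genes listed, 34 had a single identifier, and 5 of these had 0 UMIs. The members, the other pathway genes, and for 6 members the 3 genes of most alike levels (at least 500 UMIs), were named by rule, and some of the genes so named are not reported here. Scripts were tested on simulated data. Alternatives, with TMM factors from edgeR 4.0.16 among them, are given in the closing section. Figures were drawn with matplotlib 3.10.9.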

Additional observations from a re-analysis of the deposited data

Results flagged for a closer look

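For 4 of the 9 genes the ratio of Nuc1 over WT lay beyond counting error in opposite directions in different cell groups, against 15.4% of the 12256 genes with at least 50 UMIs. With 1 library per genotype the difference between the groups was not tested. Rbp4 had log2 ratios of -2.66, -1.98, -0.98 and -2.11 in clusters 0, 1, 2 and 5 and of 1.71, 1.54 and 1.23 in the astrocyte-like, Inmt and Gldn groups. Rdh10 had -1.06 in the Inmt cluster and 0.98, 0.88 and 1.28 in clusters 2, 3 and 5.

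Crabp2 had a log2 ratio of -0.89 in the Inmt cluster and of 0.57, 0.16 and 0.36 in clusters 0, 1 and 5. In the astrocyte-like and motile cilia-like groups, where it was low and fibroblast genes were also read, it had 2.61 and 2.23. Macrophage-like cells, where fibroblast genes were read too, had 2.26, from 56.6 CPM in WT and 271 CPM in Nuc1. Aldh1a3 had -2.99 in cluster 0 and 1.58 in cluster 1, from 12 and 1 and from 9 and 13 UMIs in WT and Nuc1. Without the highest cell of each library its ratio in cluster 1 was 1.05 (-0.85 to 2.95), which holds 0.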

How the results depend on the processing

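No paired analysis was possible because there is a single library of each genotype, and no library was left out in turn. The intervals cover counting error, and genotype, sex, animals and handling cannot be told apart. The alternatives that left out the Inmt cluster, the highest cell of each library, cells with Y-linked UMIs or astrocyte-like cells rich in fibroblast genes, the doublets called by a majority of seeds, and the limit of 10 cells for the ranges over clusterings, were chosen after seeing the data. 

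The values below are log2 ratios of Nuc1 over WT that moved beyond their counting interval. In collagen-rich cells, leaving out the Inmt cluster gave 1.33 for Aldh1a2, 1.79 for Cyp26b1, -1.92 for Rbp4 and 0.25 for Crabp2. Equal weight of clusters gave 0.50 for Aldh1a2, 1.86 for Cyp26b1, -0.034 for Crabp2 and 0.11 for Rdh10, and a 10% mitochondrial limit 4.23 for Cyp26b1, -0.63 for Rbp4 and 0.10 for Crabp2. Crabp2 was 0.096 by marker scores and 0.10 by TMM, and Aldh1a1 1.49 without integration. In astrocyte-like cells a 10% mitochondrial limit gave 0.071 for Rbp4 and 0.33 for Crabp2, marker scores 2.06 for Aldh1a1, 1.11 for Rbp4 and 1.29 for Crabp2, thinning 2.5 for Rbp4, and leaving out cells rich in fibroblast genes 0.31 for Crabp2. Over all kept cells a 10% mitochondrial limit gave 4.32 for Aldh1a1 and 3.92 for Cyp26b1, and thinning 3.47 for Aldh1a1, 3.82 for Cyp26b1, -0.42 for Rbp4 and -0.15 for Crabp2. Marker scores also lowered the shares of Aldh1a2, Cyp26b1 and Crabp2 UMIs in collagen-rich cells. The cause of these moves was not tested. TMM scaling moved all log2 ratios in astrocyte-like cells by 0.17.

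Of the 9 genes, Rbp4 sat at the 2-fold limit in collagen-rich cells, and the number 2-fold lower was 0 under a minimum of 200 genes, a 10% mitochondrial limit, no doublet removal, no integration, marker scores, equal weight of clusters or without cells with Y-linked UMIs. In astrocyte-like cells the number 2-fold higher was 1 under the 10% limit and 1 with thinning, where Rbp4 and Crabp2 were still past 2-fold but had fewer than 100 UMIs, and a minimum of 20 UMIs brought 1 gene that was 2-fold lower.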
